A study of Mus musculus with 4 samples.

Results

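The cells described here are barcodes of mouse inner ear organoids in which at least 4 of 6 genes were detected: Ibsp, Barx1, Nrn1, Cyp26b1, Pgf and Tmem45a. Each also had at least 500 detected genes, at most 10% mitochondrial UMIs (unique molecular identifiers, 1 per captured transcript) and fewer than 5 of 8 cell cycle genes detected. They numbered 399 of 35853 barcodes that passed the same limits on genes and mitochondrial UMIs (1.11%), out of 37597 deposited. Because measured UMIs chose them, the levels of the 6 genes in them are a description and carry no test. The working name of the group was Ibsp and Barx1 skeletogenic-like mesenchyme, and the data went against its first part. Ibsp, which encodes bone sialoprotein, a protein of mineralising bone matrix, was detected in 4 of the 399 cells, and Barx1 in 176 (44.1%). The cells are therefore called after the genes that most of them carried, Pgf, Tmem45a, Cyp26b1 and Nrn1, and no cell type name is given to them.

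The organoids were grown in 3 dimensions from mouse embryonic stem cells and dissociated for droplet sequencing of single cells with a 3′ kit. The 4 libraries were KO day 35, WT day 35, KO day 25 and WT day 25, 1 of each. KO organoids came from 1 line, labelled Tmprss3KO-GFPKI, in which the serine protease gene Tmprss3 is knocked out and GFP knocked in. The WT line was R1/E, and 129X1x129S1 is given as strain origin for all 4. Each group is 1 library, so no difference below has a replicate check, and every interval covers counting error only. Barcodes kept numbered 6729 (KO) and 8166 (WT) at day 35 and 11190 (KO) and 9768 (WT) at day 25. Their median depth was 4420 (KO) and 3089 (WT) UMIs at day 35 and 6371 (KO) and 6166.5 (WT) UMIs at day 25. Tmprss3 itself had 5 (KO) and 8 (WT) UMIs at day 35 and 7 (KO) and 18 (WT) UMIs at day 25 in all kept barcodes and none in the 399 cells. A 3′ tag outside an altered stretch does not check a deletion, and the labels do not give the altered stretch.

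As background, the 6 genes have unlike roles. Pgf encodes placental growth factor, a secreted ligand of the VEGF family, and Nrn1 encodes neuritin, a small lipid-anchored surface protein known from neurite growth. Cyp26b1 encodes an enzyme that breaks down retinoic acid, the vitamin A derivative that patterns embryonic tissue. Barx1 encodes a homeobox factor of jaw and stomach mesenchyme, Tmem45a a membrane protein that low oxygen induces in human tumour cells, and Ibsp the bone matrix protein already named. In low oxygen, HIF factors are stabilised and bind short motifs near genes of glucose uptake, glycolysis and oxygen sensing.

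The 300 bases around the start of 4 genes (250 before and 50 after it, RefSeq, GRCm38.p6, written 5′ to 3′ on the gene's strand) are shown because 2 of them, Pgf and Tmem45a, chose most of the cells and the other 2, Slc2a1 and Egln3, are genes of the low-oxygen response that stood more than 2-fold above other mesenchyme in all 4 libraries. Capitals mark the core HIF motif, searched as ACGTG and GCGTG and, for the other strand, CACGT and CACGC. The regions are chr12:85177264-85177563 (minus strand) for Pgf, chr16:56886114-56886413 (minus) for Tmem45a, chr4:119108495-119108794 (plus) for Slc2a1 and chr12:54203825-54204124 (minus) for Egln3.
Pgf: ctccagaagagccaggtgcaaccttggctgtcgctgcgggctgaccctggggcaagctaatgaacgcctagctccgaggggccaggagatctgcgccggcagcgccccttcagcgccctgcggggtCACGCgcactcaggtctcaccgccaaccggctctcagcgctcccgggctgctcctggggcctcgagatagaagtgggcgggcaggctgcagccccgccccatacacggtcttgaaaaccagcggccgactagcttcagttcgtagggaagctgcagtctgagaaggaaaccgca
Tmem45a: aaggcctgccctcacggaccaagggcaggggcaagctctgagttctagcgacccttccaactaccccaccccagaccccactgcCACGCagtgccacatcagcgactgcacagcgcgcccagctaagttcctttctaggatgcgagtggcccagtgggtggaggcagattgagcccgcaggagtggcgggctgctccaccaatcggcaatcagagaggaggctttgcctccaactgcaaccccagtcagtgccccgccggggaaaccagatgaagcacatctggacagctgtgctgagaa
Slc2a1: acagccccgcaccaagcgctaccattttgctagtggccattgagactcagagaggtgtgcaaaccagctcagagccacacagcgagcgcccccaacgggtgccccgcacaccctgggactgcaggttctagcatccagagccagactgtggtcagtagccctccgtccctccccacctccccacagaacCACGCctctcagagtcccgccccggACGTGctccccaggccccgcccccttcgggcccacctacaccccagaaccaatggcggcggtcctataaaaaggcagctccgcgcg
Egln3: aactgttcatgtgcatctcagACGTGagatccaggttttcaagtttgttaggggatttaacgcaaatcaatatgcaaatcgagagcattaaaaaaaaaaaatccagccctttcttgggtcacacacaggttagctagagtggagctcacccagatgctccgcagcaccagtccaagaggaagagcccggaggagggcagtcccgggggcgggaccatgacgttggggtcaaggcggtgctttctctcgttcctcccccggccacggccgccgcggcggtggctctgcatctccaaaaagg
The windows of Pgf, Tmem45a and Egln3 held 1 match each and that of Slc2a1 held 2. For Pgf the table has 2 starts, and the one nearer the GENCODE gene start is shown, which lies inside the gene's GENCODE span. Of all 32851 mouse promoters of this length, 43.8% held at least 1 match, so a single match is common. Of the genes of a low-oxygen and glycolysis list, 22 of 23 had a promoter in the table, and 18 of the 22 (81.8%) held a match. The windows of Ibsp, Barx1 and Cyp26b1 held none, so 2 of 5 genes of the rule with a window (40%) held a match. Of 12 genes with a window among those named below as higher than other mesenchyme at day 25, 7 (58.3%) held a match. The motif contains CG, and the shares were not matched for base composition. A match is a description of the letters and not a bound site.

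The cells were most frequent in KO organoids at day 25. They made up 0.163% of kept barcodes in the KO library at day 35 (11 cells; exact Clopper-Pearson 95% interval 0.0816 to 0.292%) and 0.233% in the WT library (19 cells; 0.140 to 0.363%). At day 25 they made up 2.23% in the KO library (250 cells; 1.97 to 2.53%) and 1.22% in the WT library (119 cells; 1.01 to 1.46%). The KO share was 1.83 times the WT share at day 25 (95% counting interval 1.47 to 2.3) and 0.703 times at day 35 (0.302 to 1.55), where the interval includes 1. With only 3 of the 6 genes required, the day 35 ratio turned to 1.37 (1.13 to 1.67), and that of day 25 was 1.48 (1.35 to 1.62). Barx1 had a UMI in 9.20% (KO) and 3.31% (WT) of all kept barcodes at day 25, and its part in the ratio was not tested. With Barx1 required, the day 25 ratio was 3.01 (2.08 to 4.44). Cells with only Nrn1, Cyp26b1, Pgf and Tmem45a of the 6 genes numbered 119 of 11190 kept barcodes in KO and 78 of 9768 in WT at day 25. Day 35 stood below day 25 in both genotypes, at 0.0732 times in KO (0.0361 to 0.133) and 0.191 times in WT (0.111 to 0.312).

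Depth moved with the day comparison, and a rule that asks for UMIs of 4 genes is met less often in shallow barcodes. After each barcode was thinned to 2000 UMIs, 3 cells remained in KO and 6 in WT at day 35, and 21 in KO and 11 in WT at day 25. For this, 707 WT day 35 barcodes under 2000 UMIs were left out and none in the other libraries. The thinned shares were 0.0446% (KO) and 0.0804% (WT) at day 35 and 0.188% (KO) and 0.113% (WT) at day 25. The thinned day 35 share was 0.238 times that of day 25 in KO (0.0454 to 0.796) and 0.714 times in WT (0.217 to 2.11), so the WT fall was not detectable at equal depth. The thinned KO over WT ratio at day 25 was 1.67 (0.768 to 3.83). Few cells pass at that depth, which limits each of these ratios.

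**Figure D1:**
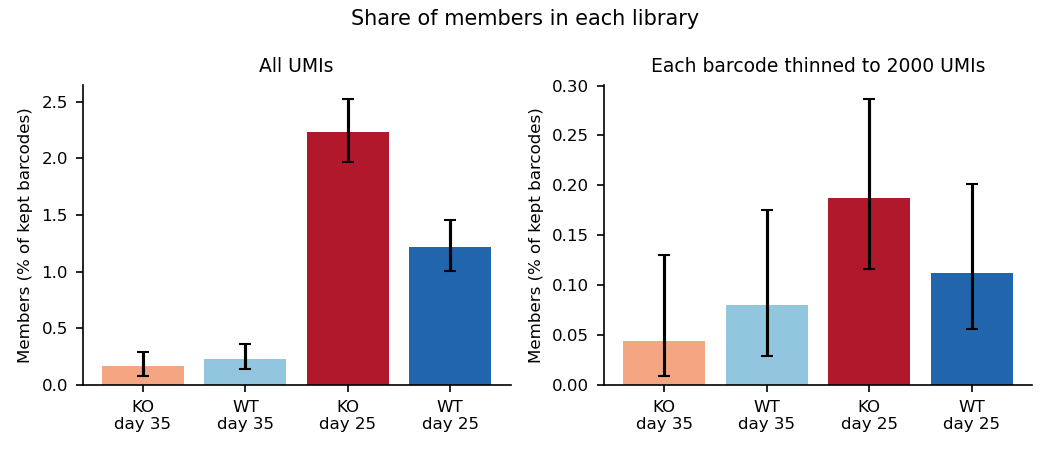
Share of kept barcodes that met the rule in each library, in percent, with all UMIs (left) and after thinning each barcode to 2000 UMIs (right); bars give the share and lines the exact 95% binomial interval. With all UMIs both day 35 bars lie below both day 25 bars, and after thinning the intervals of the 2 days overlap in each genotype. The 2 panels have different scales.

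The threshold fell on a steep slope. Just inside it, 4 of the 6 genes were detected in 11 (KO) and 19 (WT) barcodes at day 35 and 224 (KO) and 113 (WT) at day 25. Just outside it, 3 genes were detected in 212 (KO) and 178 (WT) barcodes at day 35 and 1004 (KO) and 620 (WT) at day 25. Further inside, 5 genes were detected in 26 KO and 6 WT barcodes, all at day 25, and no barcode had all 6. The limit on cell cycle genes kept out 10 KO and 8 WT barcodes at day 25. Many more barcodes thus lay 1 gene short of the rule than met it.

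The combination of Nrn1, Cyp26b1, Pgf and Tmem45a alone accounted for 220 cells, and 252 cells held all 4 of them. The next combinations had Barx1 in place of Nrn1 (63 cells) or of Cyp26b1 (52 cells), and 32 cells held the 5 genes other than Ibsp. Barx1 was detected in 18.2% (KO) and 26.3% (WT) of the cells at day 35 and in 52.4% (KO) and 31.9% (WT) at day 25. Among barcodes 1 gene short of the rule, Barx1 was detected in 13.2% (KO) and 17.4% (WT) at day 35 and 31.8% (KO) and 14.7% (WT) at day 25. At day 25 the KO library thus had the larger Barx1 share on both sides of the threshold. Among other mesenchyme, defined below, the day 25 shares were 12.5% in KO and 5.91% in WT, in the same order.

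Other mesenchyme means kept barcodes that were not among the 399 and had at least 4 of Pdgfra, Prrx1, Twist1, Lum, Dcn and Postn detected. These barcodes also had fewer than 5 of the 8 cell cycle genes detected. They numbered 1178 (KO) and 1096 (WT) at day 35 and 3673 (KO) and 2504 (WT) at day 25. Of the 399 cells, 192 also met this definition, and the others differ from it in part by construction, since its 6 genes chose the comparison barcodes. Levels are given as CPM, the UMIs of a gene summed over the cells of a library and scaled to a total of 1000000 UMIs. The median depth of the cells was 5562 (KO) and 3683 (WT) UMIs at day 35 and 6776 (KO) and 6525 (WT) UMIs at day 25. That of other mesenchyme was 4489 (KO) and 3540.5 (WT) UMIs at day 35 and 6793 (KO) and 6369 (WT) UMIs at day 25.

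The levels of the rule's own genes describe what was selected. A required UMI makes a larger CPM in a shallower barcode, so the order of the libraries is not a result about day or genotype. Pgf, the VEGF family ligand at chr12:85166635-85177790 on the minus strand (GRCm38), stood at 453 (KO) and 658 CPM (WT) in the cells at day 35 and at 454 (KO) and 326 CPM (WT) at day 25, against 94.6 and 106 CPM in KO and WT other mesenchyme at day 35 and 92.3 and 108 CPM at day 25. Its level was highest in the 19 WT cells at day 35. Nrn1, the neuritin gene (chr13:36725361-36735131, minus), stood at 436 (KO) and 434 CPM (WT) in the cells at day 35 and at 249 (KO) and 298 CPM (WT) at day 25, against 29.6 and 44.9 CPM in KO and WT other mesenchyme at day 35 and 56.5 and 54.5 CPM at day 25. In the cells the 2 day 35 libraries were alike and above the 2 day 25 libraries, the reverse of the order in other mesenchyme. Cyp26b1, the retinoic acid hydroxylase gene (chr6:84571414-84593908, minus), stood at 218 (KO) and 289 CPM (WT) in the cells at day 35 and at 188 (KO) and 164 CPM (WT) at day 25, against 22 and 22.2 CPM in KO and WT other mesenchyme at day 35 and 27.2 and 20.4 CPM at day 25. Other mesenchyme carried little of it in any library. Tmem45a, a membrane protein gene (chr16:56805161-56886166, minus), stood at 671 (KO) and 539 CPM (WT) in the cells at day 35 and at 435 (KO) and 383 CPM (WT) at day 25, against 269 and 318 CPM in KO and WT other mesenchyme at day 35 and 222 and 249.5 CPM at day 25. This gene separated the cells least, since it was also common in other mesenchyme. Barx1, the homeobox gene (chr13:48662998-48666507, plus), stood at 33.5 (KO) and 78.9 CPM (WT) in the cells at day 35 and at 87.7 (KO) and 45.3 CPM (WT) at day 25, against 4.50 and 19.1 CPM in KO and WT other mesenchyme at day 35 and 24.0 and 10.7 CPM at day 25. KO cells at day 25 stood highest.

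Some of these genes were not specific to mesenchyme in the organoids. In barcodes with at least 4 of 6 keratinocyte genes, Pgf had a UMI in 35.2% (KO) and 32.1% (WT) and Tmem45a in 34.0% (KO) and 32.4% (WT) at day 25, at median depths of 9661 (KO) and 8805 (WT) UMIs. Cyp26b1 was detected in 6.79% (KO) and 3.63% (WT) of them and Barx1 in 0.617% (KO) and 0.518% (WT). Nrn1 was detected in 18.2% (KO) and 18.4% (WT) of neuron-gate barcodes. Of the 399 cells, 44 (11%) also met a rule of another cell type: 29 for skeletal muscle, 8 for neurons, 6 for keratinocytes and 3 for otic epithelium, with some in more than 1. No doublet caller was run, and whether these 44 are mixed droplets was not tested. Barcode sequences found in more than 1 library made up 1.79% of all (661), 11 of the 399 among them, and no sequence was among the selected cells of more than 1 library.

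**Figure D2:**
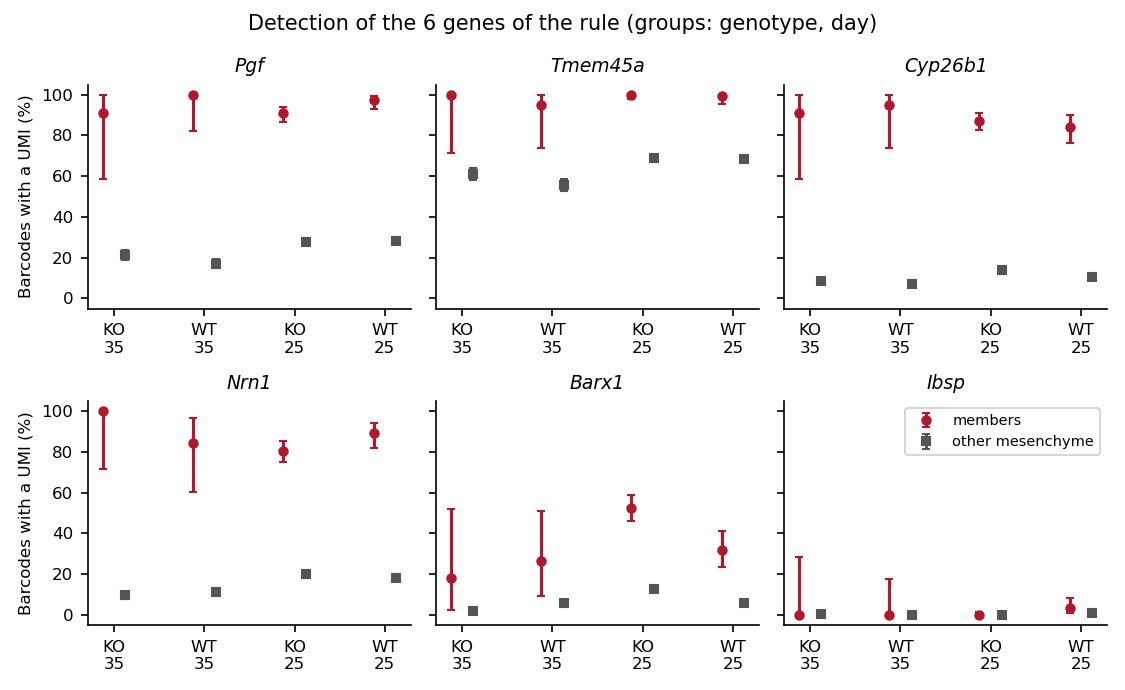
Percent of barcodes with at least 1 UMI of each of the 6 genes, by library (genotype over day), in the selected cells (circles) and in other mesenchyme (squares), with exact 95% binomial intervals. Pgf, Tmem45a, Cyp26b1 and Nrn1 were found in most selected cells by construction, Barx1 in 18.2 to 52.4%, and Ibsp in almost none.

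Bone markers were checked against the working name, and most were not higher than in other mesenchyme. Ibsp (chr5:104299171-104311469, plus) had 6 UMIs in 4 WT cells at day 25. It had none in 11 KO and 19 WT cells at day 35 or in 250 KO cells at day 25, which, taken as 3 cells of the total, allows a share of up to 27.3%, 15.8% and 1.2% of cells with a UMI in those 3 libraries. Sp7, the osteoblast transcription factor, had no UMI in any of the 399 cells (exact Poisson upper bounds at day 25 of 1.88 CPM in KO and 3.80 CPM in WT). Other mesenchyme at day 25, without barcodes of at least 2 Ibsp UMIs, held 20 (KO) and 16 (WT) UMIs. These are 0.695 (KO) and 0.863 CPM (WT), below those bounds, so the absence of Sp7 does not separate the cells from other mesenchyme. Runx2, the earlier osteogenic factor, stood at 10.2 CPM in KO cells against 7.71 CPM in KO other mesenchyme, and at 7.21 CPM in WT cells against 7.0 CPM in WT other mesenchyme (day 25). The log2 ratios of Runx2 were 0.40 (-0.34 to 1.07) in KO and 0.044 (-1.30 to 1.13) in WT, with both intervals across 0. Alkaline phosphatase, Alpl, had 1 (KO) and 3 (WT) UMIs in the day 25 cells. Of a bone matrix list, 0 of 10 measured genes stood above 0 in KO and 1 of 8 in WT against other mesenchyme at day 25, with median log2 ratios of -0.94 and -0.44. Of an osteoblast regulator list, 4 of 6 measured genes stood above 0 in KO and 3 of 6 in WT, with medians of 0.30 and -0.033. Over all genes that met the lists' conditions, 37.4% (KO) and 45.7% (WT) stood above 0, with medians of -0.15 and -0.049. The only osteoblast regulator at least 2-fold higher was Ifitm5, a membrane protein gene of bone-forming cells, in KO, at 7.14 CPM (14 UMIs in 13 cells) in the cells against 3.54 CPM in other mesenchyme, a log2 ratio of 1.01 (0.090 to 1.82). In WT the ratio of Ifitm5 was -1.55 (-4.61 to 0.34).

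Cartilage genes went both ways and rested on few cells. Of 10 measured in KO at day 25, 2 (Matn1 and Lect1) were at least 2-fold higher than in other mesenchyme and 3 (Col9a3, Col2a1 and Col11a2) lower, and of 7 measured in WT, 2 (Lect1 and Col11a2) were higher and none lower. The medians were -0.28 (KO) and 0.20 (WT). The list summed to 155 CPM in KO cells against 97.3 CPM in KO other mesenchyme, and to 181 CPM in WT cells against 113 CPM in WT other mesenchyme. All 83 Matn1 UMIs of the KO cells lay in 1 cell, as did 108 of 114 (KO) and 61 of 68 (WT) of Lect1, the gene of the cartilage peptide chondromodulin, and 7 of the 12 WT UMIs of Col11a2. Col2a1, the main cartilage collagen, had 6 (KO) and 8 (WT) UMIs, and Acan, the gene of aggrecan, 2 (KO) and 0 (WT).

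Ibsp itself lay mostly in other barcodes. The WT day 25 library held 1481 Ibsp UMIs in 68 kept barcodes, and 14 barcodes with at least 2 UMIs held 1427 of them. Of these 14 barcodes, 1 was among the selected cells and 3 were kept out by the limit on cell cycle genes. A single barcode held 638 Ibsp UMIs. The other libraries had 14 Ibsp UMIs in 4 KO barcodes and none in WT at day 35, and 14 in 7 KO barcodes at day 25. The 13 WT day 25 barcodes with at least 2 Ibsp UMIs that were not selected had, summed together, high levels of bone genes. Sp7 stood at 0 CPM in the selected WT cells at day 25, against 267 CPM in the 13. It stood at 0.863 CPM in other mesenchyme without barcodes of at least 2 Ibsp UMIs. Ifitm5 stood at 2.06, 1355 and 2.75 CPM in the same 3 sets, and Alpl at 3.09, 454 and 2.48 CPM. Col1a1, the main bone collagen chain, stood at 2999 CPM in the selected cells, 22778 CPM in the 13 and 3919 CPM in that part of other mesenchyme. Barx1, Nrn1 and Cyp26b1 had no UMI in the 13, and Pgf had 1. The barcodes with bone markers and the selected cells were therefore nearly separate sets in this library; the 13 were chosen by their Ibsp, so this is a description.

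**Figure D3:**
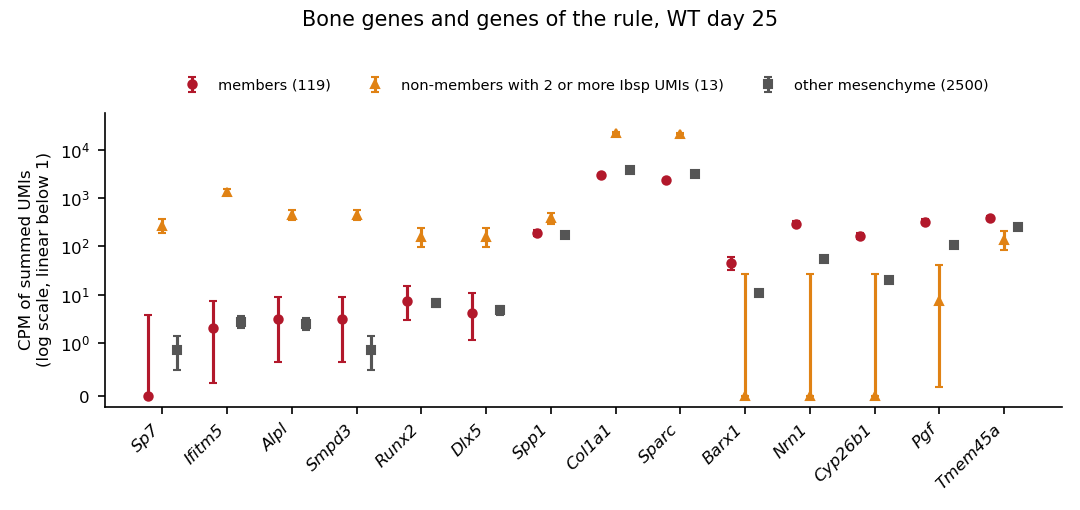
CPM of summed UMIs (log axis, linear below 1) of bone genes and of 5 genes of the rule in the WT day 25 library, for the 119 selected cells (circles), 13 unselected barcodes with at least 2 Ibsp UMIs (triangles) and 2500 other mesenchymal barcodes (squares), with exact Poisson 95% intervals. The triangles stand above the other symbols from Sp7 to Sparc, and below the circles for Barx1, Nrn1, Cyp26b1, Pgf and Tmem45a.

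The cells did carry mesenchymal genes. Prrx1, a mesenchymal homeobox gene, had a UMI in 68.4% (KO) and 58.0% (WT) of them at day 25, and Col1a1 in 99.6% (KO) and 100% (WT). In other mesenchyme, here without barcodes of at least 2 Ibsp UMIs, Prrx1 was seen in 76.0% (KO) and 73.8% (WT). Pdgfra, a growth factor receptor of mesenchyme, was seen in 26.0% (KO) and 28.6% (WT) of them, against 57.5% (KO) and 55.0% (WT) of other mesenchyme, for which it was a choosing gene. Twist1 was seen in 26.8% (KO) and 21.0% (WT) of the cells, against 38.1% (KO) and 35.9% (WT) of other mesenchyme. Prrx1 and Twist1 were choosing genes too. Detection of these genes did not set apart the selected cells led by genes of other types. In the keratin-led group of 6 and the muscle-led group of 5 described below, Col1a1 was seen in 100% of each and Prrx1 in 66.7% and 60%. Their median depths were 15322 and 13200 UMIs, and 50% and 60% of them met the mesenchymal definition. Whether they are mixed droplets was not tested.

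Against other mesenchyme of the same library, the selected cells stood apart in genes of low oxygen and glucose use. A gene was counted as higher or lower where it had at least 50 UMIs over both sets, a ratio of at least 2-fold and a 95% counting interval without 0 on the log2 scale. In both day 25 libraries, 83 genes were higher (0.735% of 11288 measured in both) and 249 were lower (2.21%), 2.94% in either direction. Day 25 is the firmer comparison, since only 30 of the 399 cells came from day 35. The genes of the rule are among those higher by construction and are not counted as results.

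Nearly every gene of the low-oxygen and glycolysis list stood higher in the cells. Of its 23 genes, 22 (KO) and 21 (WT) stood above 0 at day 35 and 23 (KO) and 22 (WT) at day 25, where above 0 means a higher level in the cells than in other mesenchyme. Those at least 2-fold higher with an interval above 0 numbered 15 (KO) and 5 (WT) at day 35 and 6 (KO) and 4 (WT) at day 25, and none was lower. Over all genes with at least 50 UMIs over both sets, the share that much higher was 2.23% (KO) and 1.89% (WT) at day 35 and 2.08% (KO) and 3.21% (WT) at day 25. The share that much lower was 2.05% (KO) and 3.3% (WT) at day 35 and 7.38% (KO) and 4.01% (WT) at day 25. The list counts also asked for at least 3 expected counts in each set, which these shares did not. At day 35 the shares cover 8645 (KO) and 7214 (WT) genes, of which 2701 and 3128 met that condition, so the 2 are not on equal terms. The median log2 ratios of the list were 1.11 (KO) and 0.78 (WT) at day 35 and 0.62 (KO) and 0.57 (WT) at day 25. Over all genes that met the list's own conditions the medians were -0.19 (KO) and -0.24 (WT) at day 35 and -0.15 (KO) and -0.049 (WT) at day 25. The list's summed level was 30708 CPM (KO) and 22052 CPM (WT) in the cells at day 35 and 27315 CPM (KO) and 25631 CPM (WT) at day 25. In other mesenchyme it was 14797 CPM (KO) and 14136 CPM (WT) at day 35 and 17052 CPM (KO) and 18633 CPM (WT) at day 25. All 4 values of the cells lay above all 4 values of other mesenchyme.

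Slc2a1, the glucose transporter GLUT1 (chr4:119108711-119137983, plus), stood at 352 CPM in KO cells and 329 CPM in WT cells at day 35, and 479.5 CPM in KO cells and 363 CPM in WT cells at day 25. In other mesenchyme it stood at 109 (KO) and 112 CPM (WT) at day 35 and 159 (KO) and 161 CPM (WT) at day 25, below the cells in each library. Its log2 ratios were 1.69 (0.99 to 2.31) in KO and 1.55 (0.91 to 2.13) in WT at day 35 and 1.60 (1.49 to 1.70) in KO and 1.17 (1.01 to 1.33) in WT at day 25. Egln3, a prolyl hydroxylase that marks HIF for destruction and is itself induced by HIF (chr12:54178981-54203860, minus), stood at 570.2 CPM in KO cells and 368 CPM in WT cells at day 35, and 278 CPM in KO cells and 299 CPM in WT cells at day 25. In other mesenchyme it stood at 103 (KO) and 92.7 CPM (WT) at day 35 and 108 (KO) and 111 CPM (WT) at day 25. The log2 ratios of Egln3 were 2.47 (KO) and 1.99 (WT) at day 35 and 1.37 (1.23 to 1.5) (KO) and 1.43 (1.25 to 1.61) (WT) at day 25. Both genes thus stood above other mesenchyme by more than 2-fold in all 4 libraries.

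The other genes of the list differed by less than Slc2a1 at day 25 in both genotypes. Ndrg1, a stress-induced gene, had log2 ratios of 1.90 (KO) and 0.86 (WT) at day 35 and 1.27 (KO) and 1.11 (WT) at day 25. Adm, which encodes the vasodilator peptide adrenomedullin, had 1.85 (KO) and 1.32 (WT) at day 35 and 1.54 (KO) and 0.90 (WT) at day 25. Ero1l, an oxidase of the endoplasmic reticulum, had 1.10 (KO) and 0.84 (WT) at day 25, and Bnip3, a mitophagy receptor, 0.91 (KO) and 0.69 (WT). Glycolytic enzymes were above 0 by less than 2-fold at day 25: Gapdh by 0.84 (KO) and 0.61 (WT), Pgk1 by 0.61 (KO) and 0.34 (WT) and Ldha by 0.41 (KO) and 0.18 (WT). Vegfa, the ligand related to Pgf, had 0.64 (0.49 to 0.79) (KO) and 0.72 (0.47 to 0.97) (WT). The only list gene below 0 at day 25 was Car9, a carbonic anhydrase, at -0.049 (-0.51 to 0.38) in WT at day 25 and 0.90 (0.66 to 1.14) in KO. Below 0 at day 35, with intervals across 0, were Pdk1, which holds pyruvate back from the mitochondrion, at -0.069 (-2.35 to 1.49) in KO and -0.81 (-3.87 to 1.06) in WT, and the glycolytic gene Pfkl at -0.076 (-1.30 to 0.91) in WT.

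**Figure D4:**
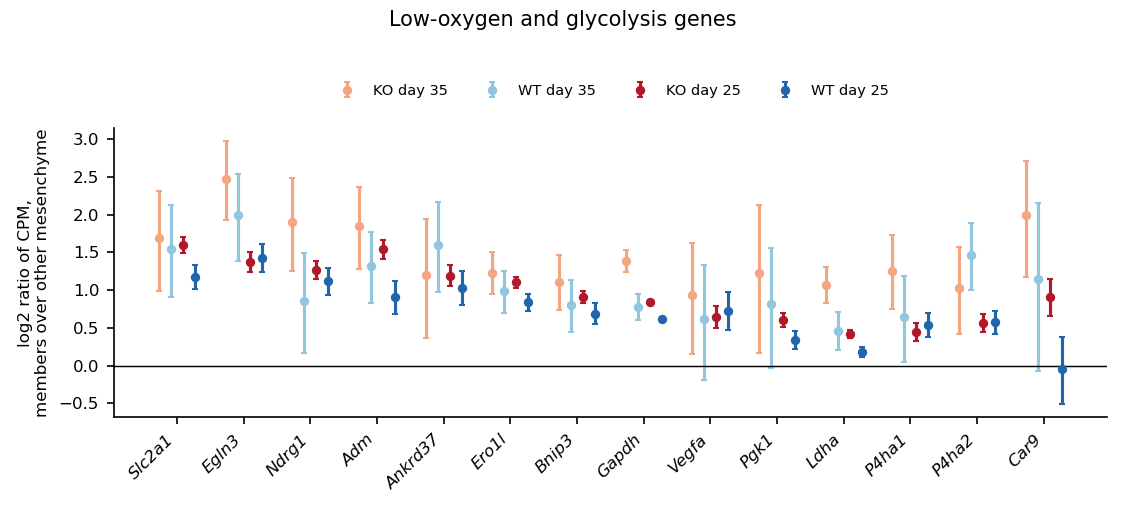
Log2 ratio of CPM in the selected cells over other mesenchyme of the same library for 14 genes of the low-oxygen and glycolysis list, with 95% counting intervals; colours mark the 4 libraries. All points lie above 0 except Car9 in WT at day 25, and the day 35 intervals are wide because 11 KO and 19 WT cells give them.

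The level of this list also followed how many of the 6 genes a barcode carried. In all kept KO barcodes at day 25 its summed level was 19418 CPM with none detected, 20089 with 1, 22600 with 2, 24893 with 3, 26964 with 4 and 29713 with 5. In WT at day 25 the values were 20899, 21974, 25232, 27388, 25593 and 26160 CPM for 0 to 5 genes, without a steady rise past 3. Among those that met the mesenchymal definition, barcodes with none detected stood at 10897 (KO) and 11790.5 CPM (WT) at day 25. With 3 detected, 1 short of the rule, they stood at 22647 (KO) and 25736.5 CPM (WT). With 4 detected they stood at 24708 (KO) and 23469 CPM (WT). The rise thus began outside the rule in both genotypes. Mitochondrial UMIs moved with it: their median share was 1.24% (KO) and 1.71% (WT) in the cells at day 35 and 1.09% (KO) and 1.52% (WT) at day 25, against 3.42% (KO) and 4.81% (WT) at day 35 and 2.16% (KO) and 2.69% (WT) at day 25 in all kept barcodes. Its part in the result was not tested.

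Among single genes outside that list, several secreted factors were higher in both day 25 libraries. Grem1, a secreted BMP antagonist, stood at 117 CPM in KO cells and 78.9 CPM in WT cells at day 35, and 30.1 CPM in KO cells and 25.8 CPM in WT cells at day 25, against 8.49 (KO) and 16.7 CPM (WT) at day 35 and 9.59 (KO) and 6.78 CPM (WT) at day 25 in other mesenchyme. Its log2 ratios at day 25 were 1.65 (1.22 to 2.06) (KO) and 1.93 (1.24 to 2.55) (WT). Bdnf, a neurotrophin, had log2 ratios of 2.31 (KO) and 1.94 (WT) from 26 and 14 UMIs in the cells. Prok2, which encodes the secreted peptide prokineticin, had 2.62 (KO) and 3.43 (WT) from 21 and 27 UMIs. Cdkn1a, the cell cycle inhibitor p21, stood at 514 CPM in KO cells against 251 CPM in KO other mesenchyme and at 607 CPM in WT cells against 282 CPM in WT other mesenchyme. The limit on cell cycle genes kept cycling barcodes out of the selected cells and of other mesenchyme alike. Sncb (beta-synuclein) and the transcription factor gene Bcl11a had log2 ratios of 2.25 and 1.74 in KO and 1.93 and 2.02 in WT, and Pcgf5, a Polycomb subunit gene, 1.69 and 1.55. Ctla2a, a protease inhibitor gene, had 1.53 (KO) and 2.00 (WT), but 12 of its 13 WT UMIs lay in 1 cell.

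Some of the higher genes rested on the few cells that also met another cell type's rule. Krt5 and Krt17, keratins of basal epidermis, had log2 ratios of 2.78 and 2.80 in KO and 1.99 and 1.31 in WT at day 25. With barcodes that met another cell type's rule left out of the cells and of other mesenchyme, these became -0.43 and -0.0753 in KO and -0.46 and -0.94 in WT. The keratinocyte rule counts keratinocyte genes, so this change is in part set by construction. Fgfbp1, a secreted FGF-binding protein gene, went the same way in KO (2.81 with all barcodes, -0.38 with those left out of both sets).

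Fibroblast and matrix genes were lower in the cells than in other mesenchyme, a difference that the choice of the comparison barcodes by Lum, Dcn and Postn sets in part. Of 12 measured fibroblast genes, none stood above 0 in either genotype at day 25, with medians of -1.83 (KO) and -1.12 (WT). Over all genes that met the list's conditions, 37.4% (KO) and 45.7% (WT) stood above 0. Of the measured collagen chains, 22 of 24 (KO) and 20 of 23 (WT) stood below 0 at day 25, with medians of -0.87 and -0.74. Col3a1 stood at 2636 CPM in KO cells against 5481 CPM in KO other mesenchyme, and at 2213 CPM in WT cells against 4094 CPM in WT other mesenchyme. Col12a1, a chain of a fibril-associated collagen, ran the other way, at 1.87 (1.18 to 2.48) (KO) and 1.32 (0.72 to 1.86) (WT) at day 35 and 0.79 (0.63 to 0.94) (KO) and 0.45 (0.20 to 0.68) (WT) at day 25. Secreted carrier genes were among the lowest: Apod (apolipoprotein D) had -2.68 (KO) and -2.24 (WT), and Ptgds (prostaglandin D synthase) -3.0 (KO) and -2.19 (WT). Col15a1, Vtn (vitronectin), Serpinf1, Clec3b, Rarres2 and Dpt (dermatopontin) had log2 ratios between -1.91 and -2.60 in both genotypes.

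In the retinoic acid pathway, the gene that makes the ligand was low where the gene that degrades it had been selected. Aldh1a2, the enzyme of retinoic acid synthesis, had 9 UMIs (4.59 CPM) in KO cells against 29.4 CPM in KO other mesenchyme, and 1 UMI (1.03 CPM) in WT cells against 32.3 CPM in WT other mesenchyme at day 25. Its log2 ratios were -2.68 (-3.81 to -1.75) and -4.97 (-10.28 to -2.49). Rbp4, the retinol carrier, had -1.18 (-1.34 to -1.02) (KO) and -1.29 (-1.52 to -1.06) (WT). Crabp1, a binding protein of retinoic acid, had 0.41 (KO) and 0.64 (WT), the receptor gene Rarg 0.97 (KO) and 0.79 (WT), and the reductase gene Dhrs3 0.87 (KO) and 0.34 (WT). Of the 15 measured genes of this list, 6 (KO) and 7 (WT) stood above 0 and the 2 named first were at least 2-fold lower in both genotypes. Over all genes that met the list's conditions, 37.4% (KO) and 45.7% (WT) stood above 0, so the list as a whole lay near all genes. The counts leave out Cyp26b1, which the rule used.

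Among signalling genes, more were lower than higher in KO at day 25. Of 25 (KO) and 23 (WT) measured BMP and TGF-beta genes, 2 in each genotype were at least 2-fold higher, Grem1 in both with Smad7 in KO and Inhba in WT, and 7 (KO) and 2 (WT) were lower. Of 25 (KO) and 23 (WT) Wnt genes, none was higher, and 9 (KO) and 1 (WT) were lower. Over all genes with at least 50 UMIs over both sets, 2.08% (KO) and 3.21% (WT) were that much higher and 7.38% (KO) and 4.01% (WT) that much lower. The lower genes included the Wnt inhibitor gene Wif1 and the ligand genes Bmp5 and Gdf10 in both genotypes. Of 16 (KO) and 13 (WT) measured Hox genes none was higher and 2 in each genotype were lower. The jaw and neural crest list had 22 (KO) and 16 (WT) measured genes, with none (KO) and 2 (WT) higher and 3 (KO) and 2 (WT) lower.

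Between genotypes at day 25, several imprinted genes, those expressed from 1 parental copy, differed in the selected cells. Over all genes, 54 were higher in KO (0.973% of 5549 measured) and 127 lower (2.29%), 3.26% in either direction. H19, the noncoding RNA next to Igf2 (chr7:142575529-142578143, minus), stood at 6091 CPM (95% interval 5982 to 6201) in KO cells and 1176 CPM (95% interval 1109 to 1247) in WT cells, a log2 ratio of 2.37 (2.28 to 2.46). Igf2, the insulin-like growth factor gene beside it (chr7:142650766-142666816, minus), stood at 196 CPM (95% interval 177 to 217) in KO cells and 1243 CPM (95% interval 1174 to 1315) in WT cells, a log2 ratio of -2.66 (-2.83 to -2.50). The neighbours thus differed in opposite directions. Cdkn1c, which encodes the growth inhibitor p57 (chr7:143458339-143461050, minus), stood at 43.4 CPM (95% interval 34.6 to 53.6) in KO cells and 628 CPM (95% interval 579 to 680.2) in WT cells, a log2 ratio of -3.86 (-4.20 to -3.53). Grb10, an adaptor of growth factor receptors, had 1 UMI in KO cells and 35 in WT cells, a log2 ratio of -6.14 (-11.49 to -3.57). Igf2r, the receptor that clears IGF2, stood at 24.0 CPM in KO cells and 75.2 CPM in WT cells, a log2 ratio of -1.65 (-2.21 to -1.10). Of 17 measured imprinted genes on the list, which holds H19, Igf2, Cdkn1c and Grb10, 1 was at least 2-fold higher and 4 lower, the fourth lower one being Peg10 (-1.24 (-1.75 to -0.74)), with 33 of its 75 WT UMIs in 1 cell.

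Other mesenchyme differed in the same directions. There H19 was 4777 CPM in KO and 1401 CPM in WT at day 25, Igf2 299 CPM in KO and 1349 CPM in WT, and Cdkn1c 41.8 CPM in KO and 494 CPM in WT. Grb10 was 0.764 CPM in KO and 33.2 CPM in WT. The KO cells came from 1 line, so genotype and line cannot be told apart.

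Other genes differed at day 25 through few cells. Spp1, which encodes osteopontin, stood at 53.6 CPM in KO cells and 189 CPM in WT cells, a log2 ratio of -1.82 (-2.18 to -1.46), and had a UMI in 17.2% and 25.2% of them. Matn1, a cartilage matrix gene, had 83 UMIs in KO cells and 1 in WT cells. Cfd and Adipoq, adipocyte products, had 56 and 68 UMIs in KO cells, 42 and 63 of them in 1 cell each, and 1 and 2 in WT cells. The predicted gene Gm6619 had 92 of its 108 KO UMIs in 1 cell, and 5 UMIs in WT cells; its ratio turned to -3.19 with 3 of the 6 genes required. On the lower side, the chemokine gene Ccl5, the inner ear matrix gene Coch and the adhesion gene Cntn1 had 6, 7 and 8 UMIs in KO cells and 47, 47 and 51 in WT cells, with 22, 25 and 37 of the WT UMIs in 1 cell each.

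Muscle genes were lower in KO cells, and this rested on cells that met a second rule. Of 11 measured skeletal muscle genes, 9 were at least 2-fold lower in KO cells at day 25, with a median log2 ratio of -1.66. Without the 44 cells that also met another cell type's rule the median was 0.0565, and the count of all genes lower in KO was 43 in place of 127. Markers of other types moved with the genotype in the same way: the medians were -1.82 for otic epithelium, -1.15 for keratinocytes, -1.07 for neurons and -0.77 for glia. Without the 44, those of otic epithelium and glia turned to 0.23 and 0.41. The low-oxygen list did not, with a median of 0.047 over 23 genes and none past 2-fold.

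**Figure D5:**
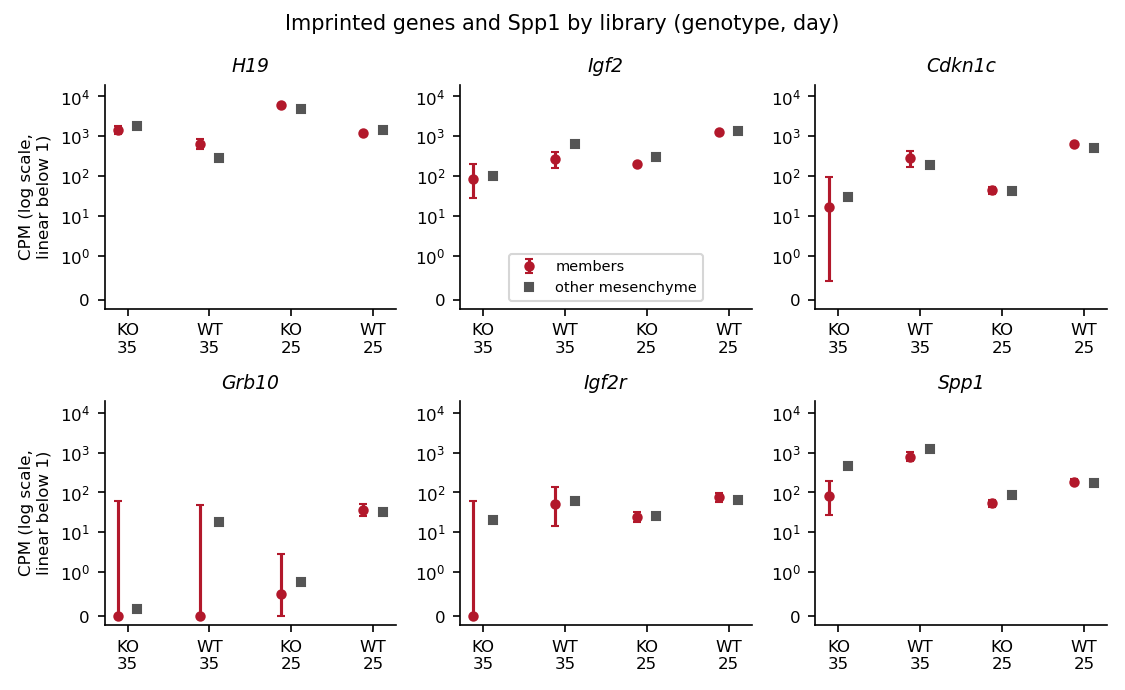
CPM (log axis, linear below 1) of 4 imprinted genes, Igf2r and Spp1 by library (genotype over day), in the selected cells (circles, with exact Poisson 95% intervals) and in other mesenchyme (squares, no interval drawn). At day 25 H19 stands higher in KO and the other 5 genes lower in KO, in both kinds of barcode.

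At day 35 the genotypes were compared over 11 KO and 19 WT cells, and 9 genes were higher in KO (2.42% of 372 measured) and 22 lower (5.91%), 8.33% in either direction. H19 stood at 1459 CPM (95% interval 1169 to 1799.8) in KO cells and 632 CPM (95% interval 466 to 837) in WT cells, and Spp1 at 83.9 CPM (95% interval 27.2 to 196) in KO cells and 789 CPM (95% interval 602 to 1016) in WT cells. Their log2 ratios were 1.21 (0.68 to 1.75) and -3.23 (-4.91 to -1.93), and these were the only 2 of the 372 genes (0.538%) past the same limits in the same direction on both days, 1 higher (0.269%) and 1 lower (0.269%). Both samples of a genotype come from 1 line. Csf3, the granulocyte growth factor gene, had 73 UMIs in KO cells, 54 of them in 1 cell, and 26 in WT cells, 13 of them in 1 cell. Col1a1 (1.42 (1.08 to 1.77)), Id3, a BMP target (1.52 (0.63 to 2.47)), and Btf3, a transcription and ribosome-associated factor gene (1.11 (0.54 to 1.69)), were also higher in KO. Crabp1 (-2.94 (-4.20 to -1.89)), the metalloproteinase inhibitor gene Timp1 (-2.27 (-3.08 to -1.55)), the chemerin gene Rarres2 (-2.06 (-2.85 to -1.34)) and Apoe (-1.68 (-2.11 to -1.28)) were lower in KO. In WT cells 61 of 111 Timp1 UMIs and 108 of 254 Apoe UMIs lay in 1 cell. With 3 of the 6 genes required, Apoe turned to 0.0701 and Csf3 to -0.99.

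Day 35 was set against day 25 within each genotype; with 11 KO and 19 WT cells at day 35, a lower level was harder to count than a higher one. In both genotypes 32 genes were higher at day 35 (1.25% of 2554) and 27 lower (1.06%), 2.31% in either direction. Secreted and stress genes were among those higher. Ptx3, a soluble pattern receptor, stood at 738 (KO) and 316 CPM (WT) at day 35 and 77.5 (KO) and 52.5 CPM (WT) at day 25, log2 ratios of 3.25 (2.73 to 3.74) in KO and 2.59 (1.82 to 3.31) in WT. The chromatin-associated stress gene Nupr1 stood at 1124 (KO) and 2039 CPM (WT) at day 35 and 318 (KO) and 475 CPM (WT) at day 25, and the chaperone gene Hspa5 at 1694 (KO) and 1658 CPM (WT) at day 35 and 725 (KO) and 742 CPM (WT) at day 25. In other mesenchyme Nupr1 stood at 1511 (KO) and 1737 CPM (WT) at day 35 and 399.8 (KO) and 466 CPM (WT) at day 25 and Hspa5 at 1163 (KO) and 970.3 CPM (WT) at day 35 and 596 (KO) and 609.8 CPM (WT) at day 25, in the same direction. The log2 ratios of Csf3 were 4.11 (KO) and 2.17 (WT), of Saa3 2.40 and 1.19, of Rarres2 1.76 and 3.59, of Sat1 1.33 and 1.45 and of H2afj 1.26 and 1.25. Saa3, an acute-phase gene, turned to -0.44 in KO with 3 of the 6 genes required and to -1.63 in WT with Barx1 required. The predicted genes Gm8797 and Gm10036 were also higher in both; near-identical copies can share reads, so they are uncertain.

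Imprinted genes of fetal growth were among those lower. Of 14 (KO) and 15 (WT) measured, 8 in each genotype were at least 2-fold lower at day 35 and none higher. Over all genes with at least 50 UMIs over both days, 1.27% (KO) and 5.88% (WT) were that much lower and 4.93% (KO) and 5.91% (WT) that much higher. These shares did not ask for at least 3 expected counts in each set, as the list did. In KO they cover 4176 genes, of which 2283 met that condition. The medians of the imprinted genes were -1.37 (KO) and -1.55 (WT). Meg3, a noncoding RNA, stood at 1157 (KO) and 632 CPM (WT) at day 35 and 5040.2 (KO) and 5878 CPM (WT) at day 25. Dlk1, its neighbour, a surface protein related to Notch ligands, stood at 704 (KO) and 605 CPM (WT) at day 35 and 2595 (KO) and 3027 CPM (WT) at day 25. Mest, a hydrolase-like gene, had log2 ratios of -2.24 (-3.38 to -1.31) in KO and -4.94 (-10.25 to -2.45) in WT, and the zinc-finger gene Plagl1 -3.48 and -2.98. In other mesenchyme Meg3 stood at 1372 (KO) and 941 CPM (WT) at day 35 and 4531 (KO) and 4313 CPM (WT) at day 25, the same direction. Fabp7, a fatty acid binding protein gene, had no UMI in the day 35 cells and 506 (KO) and 171 (WT) UMIs at day 25, at most 0.195 times the day 25 level in KO and 0.224 times in WT, with the 0 set to a floor of 3 counts per library. Of its UMIs, 590 lay in 24 cells, a group described below, at 1968 CPM against 31.4 CPM in the other selected cells. That group held 13 KO and 9 WT cells of day 25, and 1 KO and 1 WT cell of day 35. Fabp5 had log2 ratios of -1.48 (KO) and -1.17 (WT).

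Pgk1, a glycolytic enzyme gene of the low-oxygen list, was lower at day 35 in both genotypes, at -1.74 (-2.81 to -0.86) in KO and -1.71 (-2.56 to -0.98) in WT. In other mesenchyme it stood at 71.4 (KO) and 112 CPM (WT) at day 35 and 369 (KO) and 512 CPM (WT) at day 25. The list as a whole showed no shared direction with time, with medians of 0.28 (KO) and -0.018 (WT). The muscle genes Acta1, Mylpf and Myl4 were at least 2-fold lower at day 35 in both, and no day 35 cell met the rule of another cell type. Without the cells that met such a rule, the WT ratio turned to 1.11 for Acta1 and 0.52 for Mylpf, and with 3 of the 6 genes required that of Acta1 was 0.41.

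The 399 cells were not uniform. When they were grouped by their other genes (Leiden, with the 6 genes of the rule left out), 9 groups of 94, 74, 66, 63, 36, 31, 24, 6 and 5 cells resulted, and genes that lead a group describe it by construction. The group of 94 was led by Crabp1 and Lef1, that of 74 by Car3, Lpl and Agtr2 and that of 66 by Csf3, Reg3g, Ccl7 and Cxcl1, genes of secreted inflammatory factors. The group of 63 was led by Nppc, Clu and Cxcl14; it held 52 KO and 11 WT cells, all of day 25, and Barx1 was detected in 65.1% of it. The group of 36 was led by Coch, Fcgr2b and Tnc; 26 of its cells were WT day 25, and Barx1 was detected in 8.33% of it. The group of 31, led by Chil1, Rarres2 and Spp1, held 14 of the 30 day 35 cells. The 3 smallest groups were led by genes of other types: Fabp7, Pcp4 and Hes5 in 24 cells with a median of 11215 UMIs, 7 of which met the neuron rule and 3 the otic rule; Krt14, Krt17 and Krt5 in 6 cells that all met the keratinocyte rule; and Myl1, Acta1 and Mylpf in 5 cells that all met the muscle rule. The summed level of the low-oxygen list lay between 20302 CPM, in the group led by Fabp7, and 31547 CPM, in the group led by Chil1. Both values lie above the highest of other mesenchyme in any library, 18633 CPM. The lower value does not stand above all barcodes outside the rule. Barcodes with none of the 6 genes detected stood at 19418 (KO) and 20899 CPM (WT) at day 25, and at 21108 CPM in KO at day 35.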

How the data were processed

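Single cells of 4 organoid libraries were measured with the 10x v2 kit, aiming at 10000 cells each per the labels' protocols. The authors deposited whole-number UMI counts per gene and barcode, which are not normalized, in matrices of 27998 genes. Tools listed with no role in the submitters' processing notes are R 3.5.1, Seurat 2.3.1, bcl2fastq and Cell Ranger 2.1.0, and the build listed is mm10 (GRCm38). Whether doublets had been removed is not given in the sources used here, and none were removed.

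From these counts, barcodes were kept at 500 or more genes and at most 10% mt- UMIs, and the selected cells were found by the rule in the report. Counts were summed per library. Total UMIs of the selected cells were 59627 (KO) and 76003 (WT) at day 35 and 1960236 (KO) and 970805 (WT) at day 25. Each group has 1 library, so no test was run: shares carry exact Clopper-Pearson, CPM exact Poisson and ratios exact conditional binomial 95% intervals. UMI counts within cells and libraries are not replicates, so the intervals cover counting error only. A count of 0 was set to 3 counts in ratios.

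Genes were named by size, ranked by the interval bound nearest 0: up to 15 higher and 10 lower than other mesenchyme, 10 each way between days, and between genotypes 10 each way on both days and 5 each way within a day. A gene so chosen is not reported here. Lists count genes with 20 or more UMIs over both sets and at least 3 expected in each at equal levels; the second condition was added after seeing the data. The selected cells and all lists were chosen with earlier results of these data known. Gene positions come from GENCODE vM21 (GRCm38), which held 27722 of the 27998 gene IDs. The ratio calculation was tested on simulated data. Software was Python 3.11.15, numpy 2.4.6, scipy 1.17.1, pandas 2.3.3, scanpy 1.11.5 and leidenalg 0.10.2.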

Additional observations from a re-analysis of the deposited data

Results flagged for a closer look

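The genotype difference in the share of the cells pointed in opposite directions on the 2 days: the KO share was 0.703 times the WT share at day 35 (95% counting interval 0.302 to 1.55) and 1.83 times at day 25 (1.47 to 2.3). The difference between the days was not tested, and the day 35 interval includes 1. With 3 of the 6 genes required both ratios lay above 1, at 1.37 (1.13 to 1.67) at day 35 and 1.48 (1.35 to 1.62) at day 25.

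For 3 genes the change with time had opposite signs in the genotypes, each by at least 2-fold; the difference was not tested. Mthfd2, a mitochondrial folate enzyme gene, had a log2 ratio of day 35 over day 25 of 1.24 in KO and -3.20 in WT, from 13 (KO) and 1 (WT) UMIs at day 35 and 181 (KO) and 117 (WT) at day 25. Mgp, which encodes a matrix protein that blocks calcification, had 1.07 in KO and -2.00 in WT, from 33 (KO) and 4 (WT) UMIs at day 35 and 517 (KO) and 204 (WT) at day 25. Crabp1, the retinoic acid binding protein gene, went the other way, at -1.39 in KO and 1.17 in WT, from 8 (KO) and 78 (WT) UMIs at day 35 and 689 (KO) and 443 (WT) at day 25.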

How the results depend on the processing

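No paired analysis was possible because each group has 1 library, and no library could be left out. The number of cells limits the day 35 values: 11 KO and 19 WT cells leave few genes with enough UMIs, so a level that was not seen there may lie under the floor of 3 counts. Requiring Barx1, leaving out Ibsp, leaving out barcodes that met another cell type's rule, leaving out the cell with the most UMIs of a gene, and keeping only selected cells that met the mesenchymal rule were chosen after seeing the data; the others were listed earlier. Settings that require more genes, more UMIs or fewer cells leave fewer cells or genes by construction, and the cause of the other changes was not tested.

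Of the values of the share ratios under other settings, 29 moved by less than their counting error and 8 by more. The share at day 35 over day 25 was 0.238 in KO and 0.714 in WT after thinning to 2000 UMIs, 0.296 in KO and 0.319 in WT with 3 of the 6 genes required, 0.0254 in KO with Barx1 required, and 0.351 in WT with at least 1000 genes and at most 5% mitochondrial UMIs. The share of KO over WT at day 25 was 3.78 with 5 genes required and 3.01 with Barx1 required. At day 35 it was 1.37 with 3 genes required, against 0.703 as reported.

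Counts of genes stayed within 1.5 times of those reported in 83 cases and left that range in 27. Lower in KO at day 25 were 68 genes with 5 of the 6 genes required, 230 with 3, 75 with Barx1, 43 without barcodes of another rule, 319 at a minimum of 20 UMIs and 26 at 200, against 127 as reported. Higher in KO at day 25 were 130 genes at 20 UMIs and 10 at 200. At day 35, 220 genes were higher and 67 lower in KO with 3 of the 6 genes required, 43 and 47 at 20 UMIs, and 1 and 7 at 200. Higher and lower at day 35 in both genotypes were 79 and 185 genes with 3 of the 6 genes required, 14 and 14 with Barx1, and 12 and 16 at 200 UMIs. Higher and lower than other mesenchyme in both day 25 libraries were 29 and 48 genes with 5 genes required, 32 and 111 with Barx1, and 40 and 108 for selected cells that met the mesenchymal rule, and 40 were higher at 200 UMIs.

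Of 14 alternative values of the median of the low-oxygen list, 0 were counted as moved and 0 as reversed. This count was not split by comparison, so it does not give the direction over other mesenchyme alone. Of 111 ratios of named genes, 96 reversed under none of the settings run. Without barcodes of another rule, the ratio of cells over other mesenchyme was -0.43 (KO) and -0.46 (WT) for Krt5, -0.0753 (KO) and -0.94 (WT) for Krt17, -0.38 (KO) for Fgfbp1 and -1.39 (WT) for Lect1 at day 25, and the ratio of day 35 over day 25 in WT was 1.11 for Acta1 and 0.52 for Mylpf. For selected cells that met the mesenchymal rule, Krt5 was -1.15, Krt17 -0.53 and Fgfbp1 -0.76 in KO, and Lect1 -3.20 in WT. With Barx1 required, Krt5 was -1.73, Krt17 -1.52, Fgfbp1 -2.60 and Lect1 -0.88 in WT, Lect1 -1.82 in KO, and Saa3 at day 35 over day 25 in WT -1.63. Lect1 was also -0.72 in KO with 5 genes required, -1.53 (KO) and -1.57 (WT) without the 5% of barcodes with the most UMIs, and -1.22 in WT without Ibsp in the rule. With 3 of the 6 genes required, Saa3 at day 35 over day 25 was -0.44 in KO and Acta1 0.41 in WT, and KO over WT was -3.19 for Gm6619 at day 25 and -0.99 for Csf3 and 0.0701 for Apoe at day 35.

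Of the other list medians, 8 reversed. Without barcodes of another rule, KO over WT at day 25 was 3.55 for chondrocyte genes, 0.0565 for muscle, 0.41 for glia and 0.23 for otic epithelium, and cells over other mesenchyme at day 25 was 0.017 (KO) and -0.0592 (WT) for muscle and -0.0744 (WT) for glia, which was -0.0727 without the 5% of barcodes with the most UMIs.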
